A study of Mus musculus with 8 samples.

Results

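The Kcn family holds the mouse genes of potassium channels, their pore subunits and the accessory proteins that bind them. Members were the rows of a table of read counts per gene whose symbol begins with Kcn, leaving out antisense genes, pseudogenes and opposite-strand transcripts, which gave 94 members of 38293 genes. All 94 are protein-coding, and 4 antisense genes of the same prefix were left out. RNA came from cardiac ventricle of mice of 8 weeks of age, a mix of left and right, in 4 samples heterozygous for a deletion in Pkp2, the plakophilin gene of the desmosome (PKP2 c.1755delA/WT, HET), and 4 wild-type samples (PKP2 WT/WT, WT). The labels spell the allele in more than 1 way, and the form in the series title is used here. Strain, the origin of the line and whether each sample is a separate animal are not given in the sources used here, so p-values measure the spread between these samples, which may be technical.

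Potassium channels carry the outward current that ends the action potential of the heart muscle cell and sets its resting potential. In mouse ventricle the fast transient outward current flows through Kv4 pores (Kcnd2, Kcnd3) with the accessory protein KChIP2 (Kcnip2), slower outward currents flow through other Kv pores such as Kv1, and the resting potential rests on inward rectifiers (Kir, Kcnj genes). Repolarisation in human ventricle leans more on Kcnh2 (hERG) and Kcnq1 (KvLQT1), genes of inherited long QT syndrome.

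HET libraries held 32397302 to 38611008 counts and WT libraries 38510257 to 41234883. Pkp2 was lower in every HET library, at 88.2 to 105.6 CPM (counts per 1000000, on TMM-scaled library sizes) against 148.5 to 169.1 CPM in WT (Benjamini-Hochberg adjusted p = 0.00376, quasi-likelihood F test of edgeR). The labels give the genotype only, with no direction for Pkp2 RNA. Heart muscle markers were abundant (8 of 8 listed genes over 1 CPM). Of 7 atrial markers 4 were over 1 CPM in every library: Nppa at 218 to 461 CPM, Stard10 at 15.4 to 21.1, Myl4 at 1.74 to 3.75 and Dkk3 at 1.31 to 2.81. The other 3 were at or near 0, with Myl7 at 0 to 0.112 CPM, Sln at 0 to 0.0481 and Bmp10 at 0 to 0.0265. The 7 summed to 242 to 482 CPM in HET and 290 to 379 CPM in WT. WT replicate 3 had the highest summed macrophage markers (263 CPM against 159 to 186 in the other 7), and WT replicate 2 differed in clock genes, with Arntl at 3.42 CPM against 12.4 to 28.8 in the others.

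Of the 94 members, 36 were expressed, here meaning at least 1 CPM in at least 4 libraries. That is a share of 38.3%, against 32.9% of all 38293 genes. The 38293 genes include non-coding ones such as Kcnd3os, while all members are protein-coding, so these shares are of unlike sets. A further 13 members lay under the line for expressed genes but passed the filter on low counts, so 49 were tested. Another 34 had some counts but were not tested (at most 19 counts in any library), and 11 had 0 counts in all 8. A count of 0 allows up to 3 counts, or 0.0728 to 0.0926 CPM depending on the library, and covers counting error only. The 11 were Kcna10, Kcng3, Kcnh5, Kcnh7, Kcnk9, Kcnk15, Kcnk16, Kcnk18, Kcnmb3, Kcns2 and Kcnv1. All 5 genes that mark the family in heart (Kcna5, Kcnd2, Kcnip2, Kcnj2 and Kcnq1) were expressed and stood among the 14 highest members.

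Levels between genes are compared in TPM, counts per base of exon scaled to a sum of 1000000 per library, over the union of exons of all transcripts, which understates genes with long exons that the heart does not use. Values are mean ± SD over the 8 libraries. Transcripts were concentrated in few members: the single highest took 23.9% of the summed TPM of the family, the 3 highest 54.3% and the 10 highest 83.7% (82.7% to 84.6% over libraries). Only 3 members exceeded 100 TPM, 15 reached 10 TPM and 29 reached 1 TPM.

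**Figure D1:**
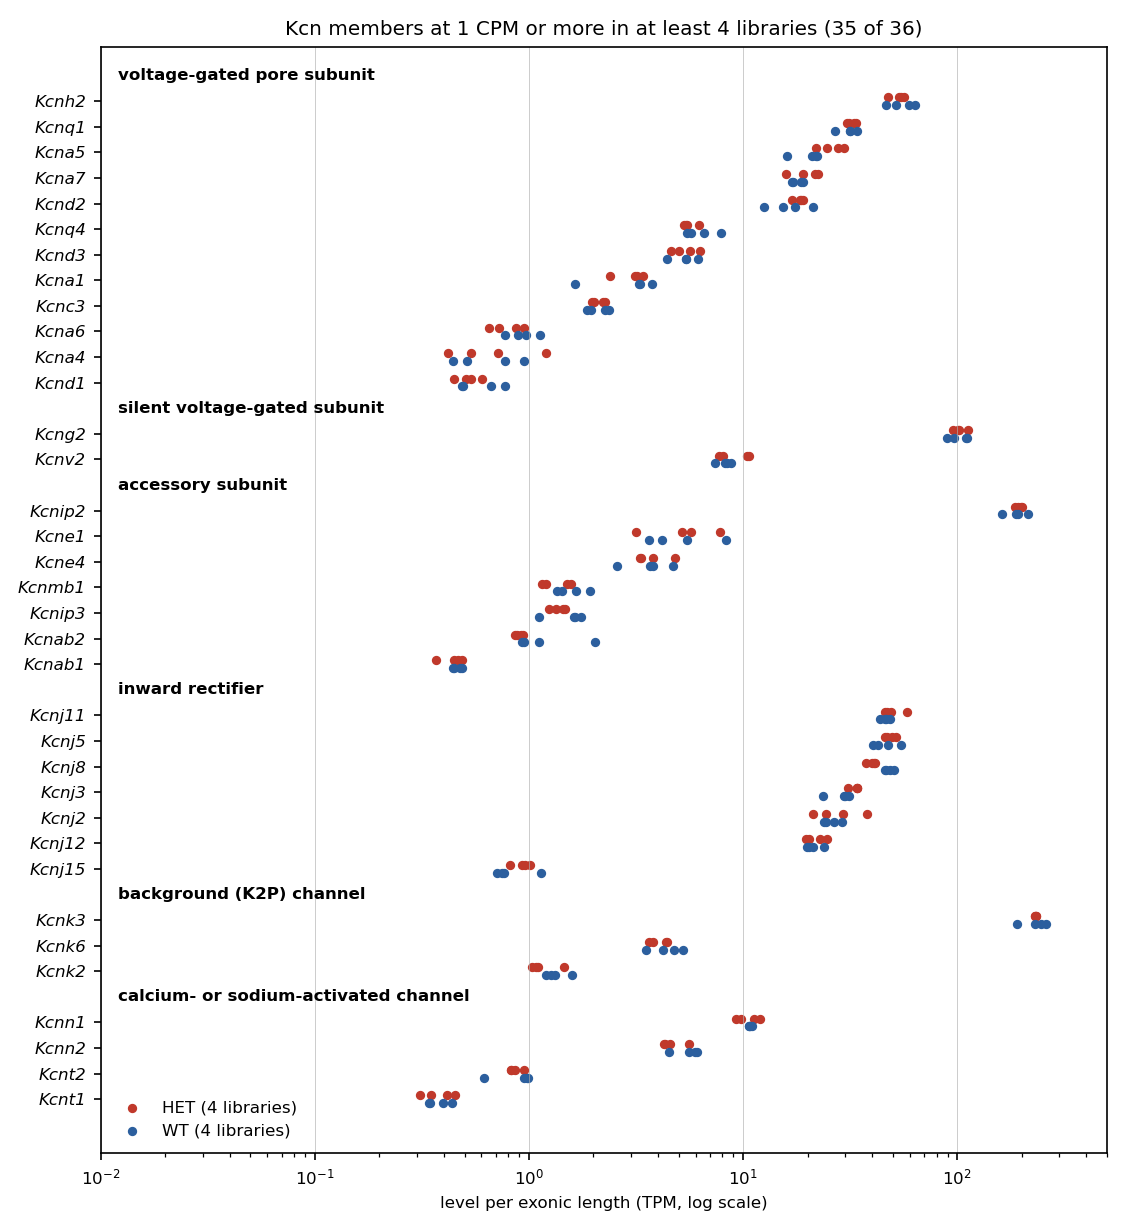
Level per exonic length (TPM, log scale) of 35 of the 36 expressed members by class; each point is a library, HET in red above WT in blue. Kcnk3, Kcnip2 and Kcng2 stand highest, and HET and WT points overlap for every member drawn except Kcnj8, which overlaps in CPM. The share of all genes without overlap in TPM was not counted.

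The highest member was a background channel, not a voltage-gated pore. Kcnk3, which encodes TASK-1, an acid-sensitive leak channel, stood at 232 ± 19 TPM (chromosome 5, 30588170 to 30625271, plus strand, GRCm38). Of the 14 K2P genes only Kcnk3, Kcnk6 (4.24 ± 0.59 TPM) and Kcnk2 (TREK-1, a stretch-sensitive channel, 1.26 ± 0.20 TPM) were expressed, and 4 had no count. Kcnip2, on chromosome 19 (45791839 to 45816061, minus strand), was second at 192 ± 15 TPM, and the ratio of Kcnk3 to Kcnip2 was 1.15 to 1.30 in the 8 libraries, so their order was the same in each.

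Kcng2 followed at 102 ± 8 TPM (chromosome 18, 80294546 to 80364254, minus strand). It encodes Kv6.2, a silent subunit, which forms no channel alone and modifies the pores it joins. Kcnv2 (Kv8.2, also silent) stood at 8.71 ± 1.20 TPM. Exonic sequence is shared with opposite-strand genes in 26 members. Among them are Kcnk3, Kcng2, Kcnq1, Kcnd3, Kcnj3 and Kcnt2, and also Kcnn1, Kcnn2, Kcnk2, Kcna6 and Kcnj15. The strand setting of the counting is not given in the sources used here, so how reads of shared sequence were assigned is not known. Kcnab2 overlaps Gm16334 on the same strand, which held 0 CPM in every library. Gm9899, opposite Kcnk3, held 1.74 to 2.99 CPM, Kcnd3os, opposite Kcnd3, 0.533 to 1.25 and Gm26794, opposite Kcnj3, 0.156 to 0.377. The genes opposite Kcng2, Kcnq1 (Kcnq1ot1) and Kcnt2 matched no gene of the counts used here, so they have no level to give.

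Among the voltage-gated pores 13 of 30 were expressed. Kcnh2 led at 54.0 ± 5.6 TPM, then Kcnq1 at 31.6 ± 2.2, Kcna5 (Kv1.5) at 23.1 ± 4.2, Kcna7 at 18.8 ± 2.3 and Kcnd2 (Kv4.2) at 17.5 ± 2.6 TPM. The last 3 overlapped within their spread. Kcnd3 (Kv4.3) was lower at 5.37 ± 0.67 TPM, and the other Kv4 gene, Kcnd1, stood at 0.563 ± 0.108. KCNE subunits, single-span partners of Kv7 pores, were weak beside Kcnq1: Kcne1 (minK) had 5.44 ± 1.85 TPM and Kcne4 3.75 ± 0.73, while Kcne2 had at most 1 count. Dpp6 and Dpp10, the peptidase-like partners of Kv4 outside the family, had at most 4 and 1 counts in a library.

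The 6 highest inward rectifiers lay between 21.6 and 48.2 TPM. Kcnj11 (Kir6.2, the pore of the ATP-sensitive channel of heart muscle) stood at 48.2 ± 4.6 TPM, Kcnj5 (Kir3.4) at 47.4 ± 4.7, Kcnj8 (Kir6.1) at 43.9 ± 4.7, Kcnj3 (Kir3.1) at 30.9 ± 3.5, Kcnj2 (Kir2.1) at 27.1 ± 5.2 and Kcnj12 (Kir2.2) at 21.6 ± 1.9 TPM. The first 3 overlapped within their spread over the 8 libraries, but not within HET, where every library held less Kcnj8 than Kcnj11 or Kcnj5. Means in HET were 39.9 ± 1.7 TPM for Kcnj8, 50.2 ± 5.7 for Kcnj11 and 48.4 ± 2.7 for Kcnj5. In WT they were 47.9 ± 2.2, 46.1 ± 2.2 and 46.4 ± 6.4 TPM. Kcnj3 and Kcnj5 form the channel opened by acetylcholine and are best known from atrium. The levels of 7 atrial markers in these libraries are given above, and their part in the levels of Kcnj3 and Kcnj5 was not tested. Calcium-activated members were few: Kcnn1 (SK1) stood at 10.6 ± 0.9 TPM and Kcnn2 (SK2) at 5.11 ± 0.77, while Kcnma1, the BK pore, had at most 8 counts.

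The comparison of HET with WT asked whether these genes differ in ventricle that carries the Pkp2 deletion. No member passed the test. Among the 49 tested, edgeR called 0 higher and 0 lower at an adjusted p under 0.05, where it called 0.00686% of the 14567 genes, a single gene (Pkp2). DESeq2 also called 0 members (0.0892% of all genes), as did limma-voom (0.00686%). At an unadjusted p under 0.05 edgeR placed 3 members (6.12%) against 6.38% of all genes. Of the 3, 2 were positive (4.08% of tested members against 2.75% of all genes) and 1 negative (2.04% against 3.63%). DESeq2 placed 3 members there too (6.5% of all genes), and so did limma-voom (6.33%). In CPM the groups did not overlap for 0 members, against 3.78% of all genes (1.7% with HET higher and 2.08% with HET lower). The smallest adjusted p of a member was 0.770 in edgeR. The members' shares were thus close to those of the whole table or under them, except for the positive ones at an unadjusted p under 0.05. That share was above the table's but rests on 2 members.

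Log2 fold changes (HET over WT) ran from -0.63 to 0.40, with 25 positive and 24 negative, 51.0% positive against 48.5% of all genes. The median of the 49 was 0.014, against -0.0038 over all genes, and it turned to -0.028 with library-size scaling, to -0.012 with the digits shared by sample titles as covariate, to -0.0045 without HET replicate 1 and to -0.0090 without HET replicate 3. Among the 19 members of 10 CPM or more, 15 were positive (78.9%, median 0.084), where 56.9% of the 8474 genes of that level were (median 0.014). Without HET replicate 3, 12 were positive, and with library-size scaling the median was 0.040. Heart muscle markers summed to 79055 to 83173 CPM in HET and 74375 to 79745 in WT, ranges that overlap, with 6 of 8 positive and 0 called. Myh6 was the largest part of the sum, at 35213 to 37635 CPM in HET and 32744 to 34208 in WT. Log2 fold changes were 0.12 in Myh6, Tnnt2 and Ryr2 and 0.06 in Pln. They were -0.008 to 0.025 in Tnni3, Myl3, Myl2 and Actc1. The part of these markers in the count of positive members was not tested. In bulk tissue fewer cells of a type and less RNA per cell cannot be told apart.

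**Figure D2:**
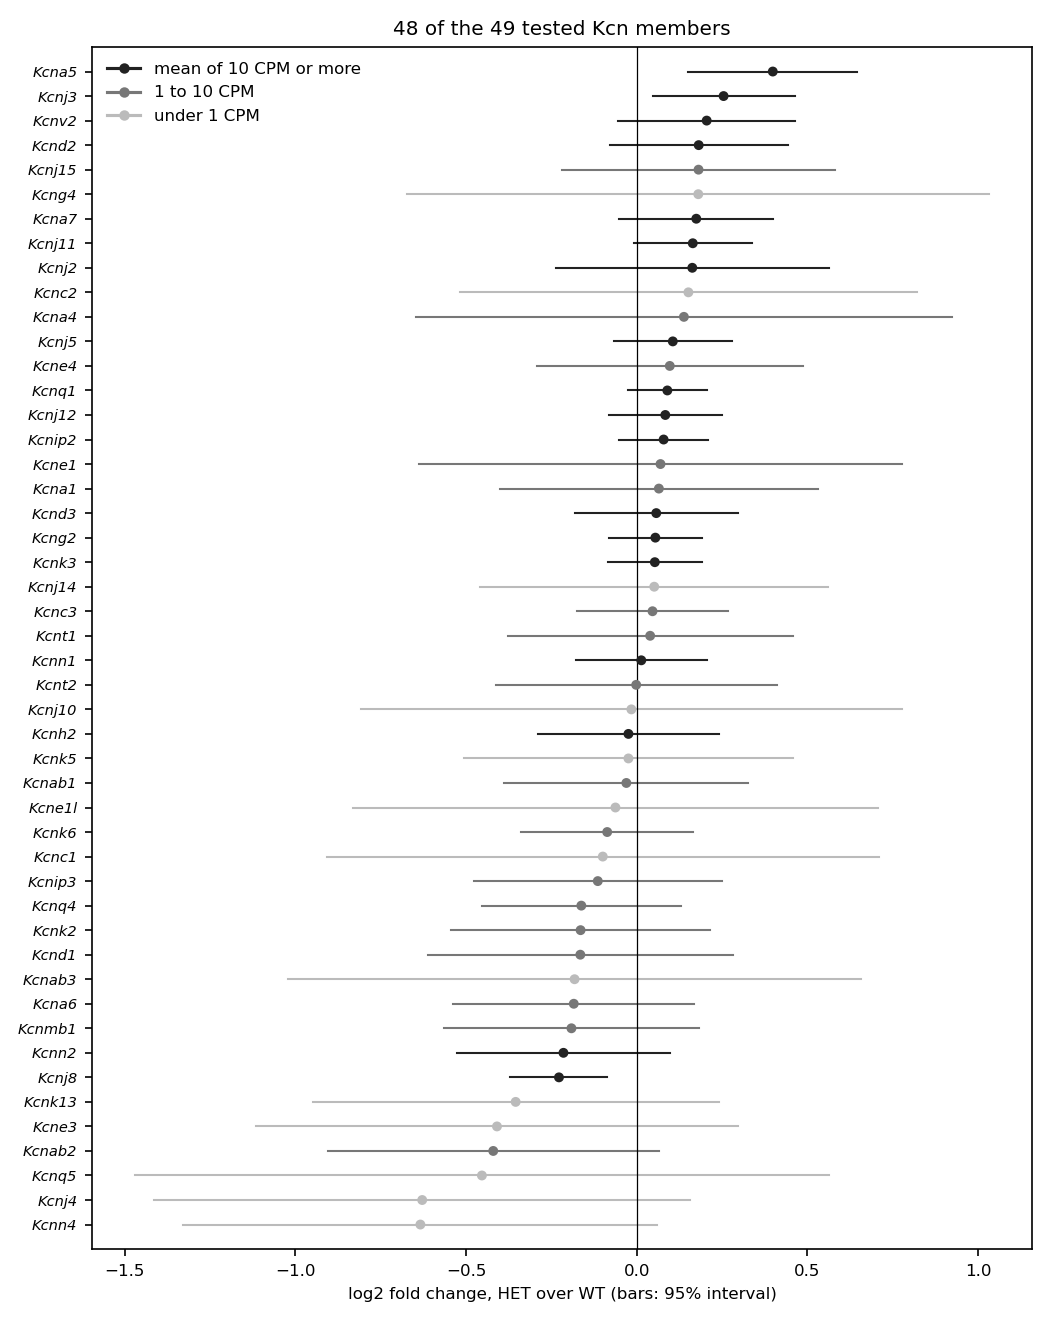
Log2 fold change of HET over WT with its 95% interval for 48 of the 49 tested members, shaded by mean level. Intervals of 3 members, Kcna5, Kcnj3 and Kcnj8, leave out 0, and most members under 1 CPM (light grey) have wide ones.

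By class, 9 of 16 tested voltage-gated pores, 3 of 3 silent subunits, 3 of 10 accessory subunits, 7 of 10 inward rectifiers, 1 of 5 K2P genes and 2 of 5 calcium- or sodium-activated channels had a positive log2 fold change, and 0 in each class were called. For the 3 highest members the intervals were narrow. Kcnk3 was at 365, 363, 358 and 350 CPM in HET and 370, 302, 360 and 351 CPM in WT (log2 fold change 0.05, 95% interval -0.08 to 0.19; -0.0063 without WT replicate 2, 0.0091 with library-size scaling and -0.012 with the title digits as covariate). Kcnip2 was at 245 to 276 CPM in HET and 225 to 261 in WT (0.08, interval -0.05 to 0.21; 0.036 without WT replicate 2, 0.052 without HET replicate 2 and 0.035 with library-size scaling). Kcng2 was at 113 to 128 and 107 to 126 CPM (0.05, interval -0.08 to 0.19; 0.024 without HET replicate 4 or WT replicate 2, 0.012 with library-size scaling and -0.030 with the title digits as covariate). In all 3 the groups overlapped. At 10 CPM or more the median distance from estimate to interval bound was 0.19 on the log2 scale. Differences well under that size were not detectable in single members. These intervals are not adjusted for the number of genes tested, so a call by adjusted p needs a larger difference. Kcna5, at 0.40, was not called.

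The 3 members with an unadjusted p under 0.05 were Kcna5, Kcnj3 and Kcnj8, and their RefSeq promoters (GRCm38.p6, 250 bases before to 50 after the start, 5′ to 3′) are printed with that of Kcnip2, the highest accessory subunit. Capitals mark CG pairs.
Kcna5, chr6:126535506-126535805, minus strand: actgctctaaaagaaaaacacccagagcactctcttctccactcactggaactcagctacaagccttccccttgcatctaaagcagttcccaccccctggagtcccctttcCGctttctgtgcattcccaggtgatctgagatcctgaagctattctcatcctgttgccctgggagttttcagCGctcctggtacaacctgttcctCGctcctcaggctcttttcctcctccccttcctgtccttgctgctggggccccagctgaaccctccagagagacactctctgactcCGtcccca
Kcnj3, chr2:55435720-55436019, plus strand: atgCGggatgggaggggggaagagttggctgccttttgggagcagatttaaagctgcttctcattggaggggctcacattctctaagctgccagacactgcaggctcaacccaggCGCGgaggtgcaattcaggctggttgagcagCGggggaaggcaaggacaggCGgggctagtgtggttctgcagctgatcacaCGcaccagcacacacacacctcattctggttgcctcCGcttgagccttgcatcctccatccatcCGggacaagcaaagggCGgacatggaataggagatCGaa
Kcnj8, chr6:142571565-142571864, minus strand: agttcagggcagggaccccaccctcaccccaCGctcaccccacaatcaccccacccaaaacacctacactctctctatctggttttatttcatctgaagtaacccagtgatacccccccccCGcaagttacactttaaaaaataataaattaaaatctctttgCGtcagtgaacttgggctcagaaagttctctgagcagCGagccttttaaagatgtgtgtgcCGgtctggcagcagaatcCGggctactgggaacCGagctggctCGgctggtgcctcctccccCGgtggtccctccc
Kcnip2, chr19:45816014-45816313, minus strand: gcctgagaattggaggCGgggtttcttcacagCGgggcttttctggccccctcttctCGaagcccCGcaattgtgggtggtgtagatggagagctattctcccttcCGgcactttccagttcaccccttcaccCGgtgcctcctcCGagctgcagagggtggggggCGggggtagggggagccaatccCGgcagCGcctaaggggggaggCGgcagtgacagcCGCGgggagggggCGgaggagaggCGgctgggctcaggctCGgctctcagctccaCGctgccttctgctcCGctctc

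The windows hold 4 CG pairs (Kcna5), 10 (Kcnj3), 9 (Kcnj8) and 18 (Kcnip2). RefSeq promoters matched 69 of the 94 members, in 94 windows with a median of 9 CG pairs, against 7 over all 32851 windows. The median was 9 in expressed members, 7.5 in tested members under that line, 9 in members with counts that were not tested and 12.5 in the 8 matched members without a count. The letters TATAAA, on either strand, are in none of the 4 windows, in 5.32% of the members' windows and in 13.6% of all windows.

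Kcna5 had the largest difference among these 3. It was at 27.8, 24.9, 30.7 and 32.1 CPM in the HET libraries and 22.7, 25.1, 22.2 and 17.6 CPM in the WT libraries. WT replicate 2 reached above the lowest HET library, so the groups met at their edges. The log2 fold change was 0.40 (SE 0.112, 95% interval 0.15 to 0.65, unadjusted p = 0.00485, adjusted p = 0.770, edgeR). Kcna5 lies on chromosome 6 (126532551 to 126535412, minus strand) beside Kcna1 and Kcna6, whose log2 fold changes were 0.07 (interval -0.40 to 0.53; -0.12 without WT replicate 2) and -0.18 (interval -0.54 to 0.17).

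Kcnj3 was at 69.4, 70.1, 68.2 and 61.4 CPM in HET and 46.5, 64.8, 54.2 and 60.0 CPM in WT. A single WT library, replicate 2, exceeded the lowest HET library. Its log2 fold change was 0.25 (SE 0.0935, interval 0.05 to 0.46, unadjusted p = 0.0212, adjusted p = 0.770, edgeR), and it was 0.41 with the title digits as covariate (adjusted p = 0.723, edgeR). Within the libraries whose titles share those digits the direction was the same, at 66.3 against 46.5 CPM (3 HET, 1 WT) and at 70.1 against 57.1 CPM (1 HET, 2 WT); the remaining library, WT replicate 2, shares its digits with no other. For its partner Kcnj5 the value was 0.11 (interval -0.07 to 0.28), with overlapping groups; it was 0.050 without WT replicate 1, 0.062 with library-size scaling and 0.178 with the title digits as covariate.

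Kcnj8 was the 1 of the 3 with the lower mean in HET. It was at 40.0, 41.5, 36.8 and 39.7 CPM in HET and 49.1, 47.5, 41.1 and 47.3 CPM in WT, where WT replicate 3 fell below the highest HET library. Whether the groups met depended on the scale: in TPM, which is not TMM-scaled, Kcnj8 was at 40.0, 41.2, 37.4 and 40.9 in HET and 50.8, 46.7, 45.9 and 48.3 in WT, with no overlap. How many of all genes had no overlap in TPM was not counted. The log2 fold change was -0.23 (SE 0.0643, interval -0.37 to -0.09, unadjusted p = 0.00483, adjusted p = 0.770, edgeR). Kcnj8 lies on chromosome 6 (142564837 to 142571614, minus strand) and is best known from pericytes and vascular smooth muscle. Pericyte markers summed to 702 to 812 CPM in HET and 737 to 845 in WT, with 4 of 6 negative and 0 called, and smooth muscle markers to 326 to 431 and 299 to 418 CPM, with 5 of 5 positive; their part in the difference was not tested.

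**Figure D3:**
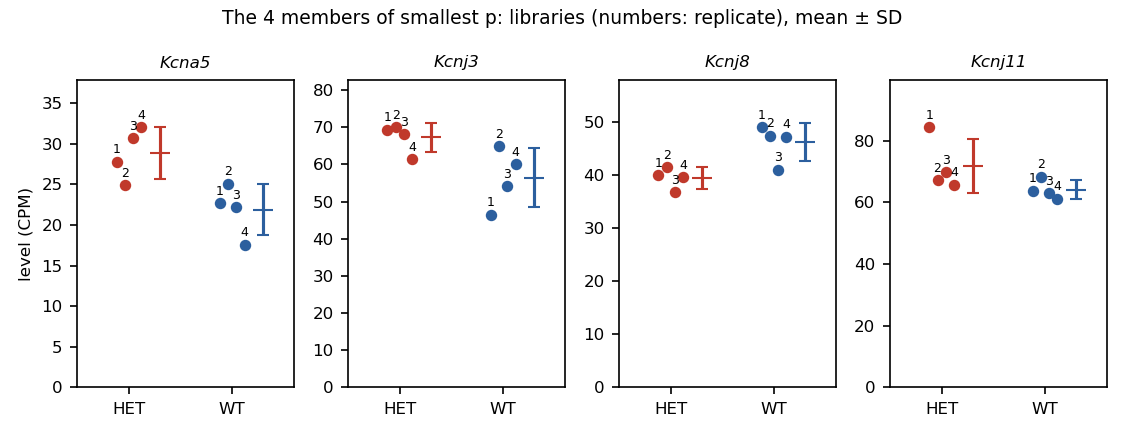
Level (CPM) of Kcna5, Kcnj3, Kcnj8 and Kcnj11 in each library, numbered by replicate, with mean ± SD beside them. HET sits mostly above WT for Kcna5 and Kcnj3 and mostly below it for Kcnj8, and in each panel the groups overlap on this scale.

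Next in order of p, 7 members had unadjusted p-values of 0.0594 to 0.116 in edgeR. Kcnj11 was at 84.5, 67.2, 69.7 and 65.8 CPM in HET and 63.8, 68.4, 62.9 and 61.3 CPM in WT (log2 fold change 0.16, interval -0.01 to 0.34). HET replicate 1 stood above the other 7 libraries, and without it the value was 0.077. Kcnv2 (0.21), Kcnq1 (0.09) and Kcna7 (0.17) were also positive, and Kcnn4 (-0.63), Kcnab2 (-0.42) and Kcnj4 (-0.63) negative. Kcnn4, the channel of blood and immune cells, and Kcnj4 were weak, at 0.347 ± 0.045 and 0.312 ± 0.116 CPM in HET and 0.542 ± 0.209 and 0.485 ± 0.182 in WT (SD, n = 4 each). Most of these values moved with 1 library: Kcnj4 was -0.34 without WT replicate 1, Kcnn4 -0.39 without WT replicate 3, Kcnv2 0.129 without HET replicate 2 and 0.135 without HET replicate 3, Kcnq1 0.052 without WT replicate 2, and Kcna7 0.113 without WT replicate 3. The title digits as covariate gave -1.07 for Kcnj4, 0.33 for Kcnv2, 0.042 for Kcnq1 and 0.061 for Kcna7. With library-size scaling Kcnq1 was 0.046.

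Ratios of 2 subunits within a library do not depend on library scaling, and 6 were compared, each with an exact two-sided permutation test that can give no p below 0.0286. Kcnj8 and Kcnj11 are the alternative pores of the ATP-sensitive channel. The ratio of Kcnj8 to Kcnj11, in counts per kilobase, was 0.683, 0.891, 0.761 and 0.870 in HET and 1.11, 1.0, 0.942 and 1.11 in WT. Every HET library lay below every WT library. The log2 difference was -0.38 (SE 0.107), with an exact permutation p = 0.0286, the smallest possible, and an adjusted p = 0.171 (6 ratios), so it did not pass. The direction was the same among the libraries that share title digits, and the difference was -0.31 without HET replicate 1. The sulfonylurea receptors that complete this channel, Abcc9 (0.06, SE 0.0605) and Abcc8 (0.13, SE 0.0704), did not pass the test. Kcnj11 is best known from heart muscle cells and Kcnj8 from vessel walls, whose summed markers are given above; their part in the ratio was not tested.

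The other 5 ratios overlapped between the groups. Kcnip2 to Kcnd2, the accessory protein over its pore, was 10.1 to 11.8 in HET and 10.1 to 15.02 in WT (log2 difference -0.12, SE 0.140, exact permutation p = 0.543; 0.0075 without WT replicate 1, which held the lowest Kcnd2, 24.5 CPM). Kcnd3 to Kcnd2 was 0.296 ± 0.043 and 0.331 ± 0.077 (SD, n = 4 each). Kcnj12 to Kcnj2 was 0.809 ± 0.198 and 0.826 ± 0.088, and its log2 difference of -0.05 turned to 0.03 without HET replicate 2 and to 0.04 without HET replicate 3. Kcne1 to Kcnq1 was 0.104 to 0.251 in HET and 0.115 to 0.244 in WT, a wide range in both groups. Its log2 difference of -0.03 turned to 0.18, 0.06 and 0.15 without HET replicate 2, WT replicate 2 and WT replicate 3. Kcna4 to Kcna5 was 0.0277 ± 0.0125 and 0.0325 ± 0.0084. The exact permutation p-values of these 5 were 0.429 to 0.943, and 0.814 to 0.943 adjusted over the 6 ratios.

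**Figure D4:**
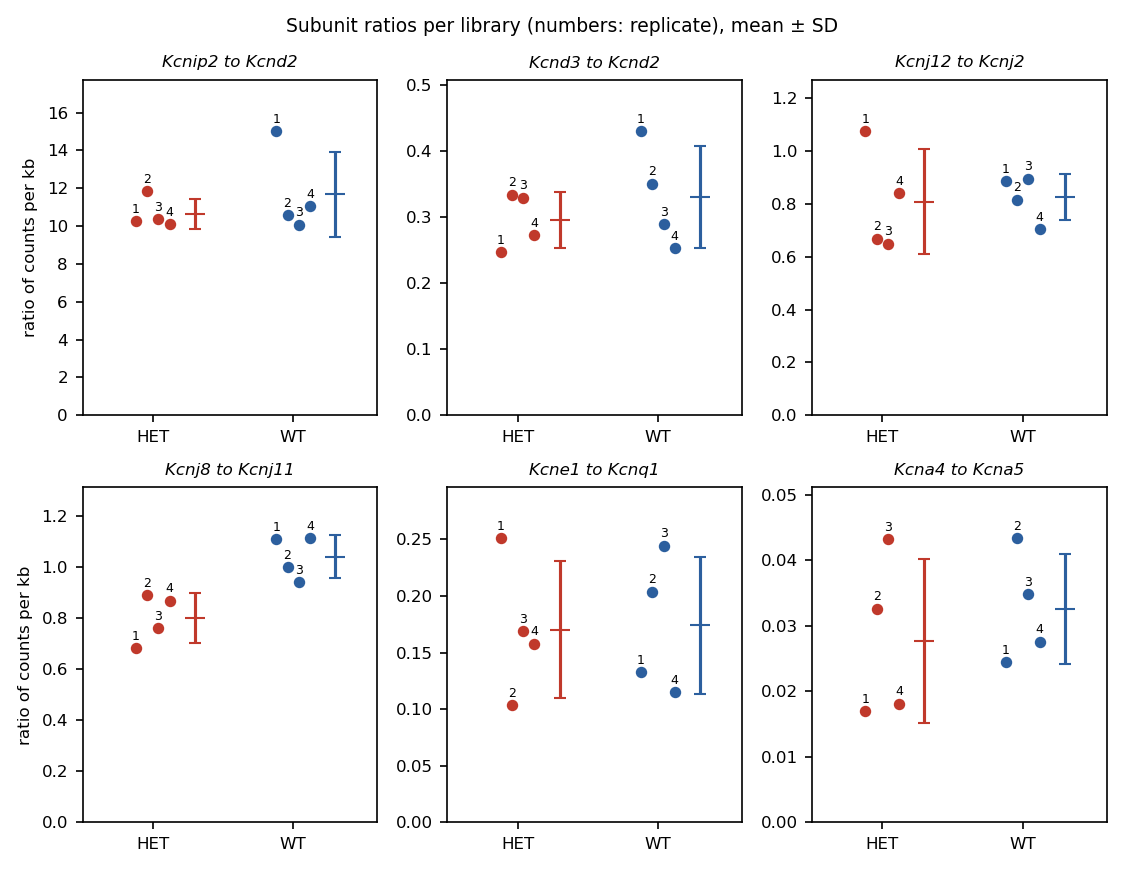
Ratio of counts per kilobase for 6 pairs of subunits in each library, numbered by replicate, with mean ± SD. For Kcnj8 to Kcnj11 the 4 HET libraries (0.683 to 0.891) sit below the 4 WT libraries (0.942 to 1.11), and the other 5 pairs overlap.

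The median coefficient of biological variation, edgeR's estimate of spread beyond counting noise, was 13.1% over the 36 members of at least 1 CPM and 10.3% over the 12575 genes of that level. It was lowest in Kcnq1 (7.83%) and highest, among members of that level, in Kcna4 (33.7%), Kcne1 (30.4%), Kcnab2 (22.0%), Kcna1 (21.4%) and Kcnt2 (18.3%). None of the 5 passed the test by genotype (unadjusted p = 0.0826 to 0.994, edgeR).

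Kcna4, the Kv1.4 pore of the slow transient outward current, was at 0.795, 1.37, 2.24 and 0.982 CPM in HET and 0.937, 1.84, 1.30 and 0.820 CPM in WT. HET replicates 2 and 3 and WT replicates 2 and 3 were the 4 highest. Myh7, the slow myosin gene, set beside it after its values were seen, was at 61.4, 1055, 1065 and 83.0 CPM in HET and 89.6, 1093, 975 and 73.3 CPM in WT, and the same 4 libraries were the highest. The 4 were the highest in Kcnd3 too, with 17.3, 21.5, 23.3 and 18.2 CPM in HET and 19.6, 20.6, 20.7 and 16.3 CPM in WT. The relation was not tested. How many members, or how many of all genes, have the same 4 highest libraries was not counted. Kcna5, Kcnd2 and Kcnv2 had other libraries among their 4 highest. Log2 fold changes by genotype were 0.14 for Kcna4 and 0.06 for Kcnd3. They became -0.23 and -0.022 when HET replicate 3 was left out, and -0.010 and -0.015 when WT replicate 4 was.

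Kcne1 ranged over 2.45-fold, at 9.86, 4.02, 7.06 and 6.34 CPM in HET and 5.10, 7.04, 9.40 and 4.51 CPM in WT, with 129 to 389 counts. High and low libraries occurred in both groups. Its log2 fold change of 0.07 (interval -0.64 to 0.78) became -0.16 when HET replicate 1 was left out, and -0.028 or -0.070 when WT replicate 1 or 4 was. Kcne1 is on chromosome 16 (92345982 to 92359468, minus strand), as are Pkp2, Kcne2, Kcnj6 and Kcnj15, which lie 76.0 to 79.0 Mb beyond the end of Pkp2. Of these Kcnj15 was the other one tested (log2 fold change 0.18, interval -0.22 to 0.58).

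Kcnab2, a cytoplasmic beta subunit of Kv1 channels, was at 1.93, 2.03, 2.03 and 1.82 CPM in HET and 1.97, 2.11, 3.99 and 2.38 CPM in WT. WT replicate 3 stood apart, and without it the log2 fold change moved from -0.42 to -0.14. That library also held the highest Kcnn4 (0.797 CPM against 0.281 to 0.629 in the other 7) and the highest summed macrophage markers; their part in these values was not tested. Kcnt2, a sodium-activated channel, was lowest in WT replicate 3, at 1.498 CPM against 2.19 to 2.72 in the others, and its log2 fold change of -0.0015 took the other sign without HET replicate 2 (0.013), HET replicate 3 (0.026), WT replicate 1 (0.034), WT replicate 2 (0.084) or WT replicate 4 (0.055).

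Kcna1 (Kv1.1) was at 4.50, 6.02, 6.29 and 5.67 CPM in HET and 6.01, 3.12, 6.33 and 6.02 CPM in WT, lowest in WT replicate 2. The same library had the lowest Kcnk3 (302 CPM), Kcnip2 (225 CPM) and Kcnq1 (44.0 CPM) of the 8 and the highest Kcnh2 (122 CPM). Kcnh2 was at 107, 103, 102 and 87.5 CPM in HET and 85.3, 122, 88.0 and 110 CPM in WT. Dbp, a clock output gene set beside it after its values were seen, was at 55.0, 59.6, 33.5 and 35.2 CPM in HET and 30.2, 231, 31.5 and 113 CPM in WT. WT replicates 2 and 4 were the highest and WT replicate 1 the lowest library for both genes. Per2, another clock gene, departed from that order: WT replicate 4 (8.84 CPM) lay below HET replicates 2 (10.9) and 4 (10.8). It was highest in WT replicate 2 (39.1) and lowest in WT replicate 1 (3.51). Arntl was lowest in WT replicate 2 (3.42 CPM) and highest in WT replicate 1 (28.8). No relation of Kcnh2 to these genes was tested. By genotype the value of Kcnh2 was -0.02 on the log2 scale (interval -0.29 to 0.24), which became 0.078 when WT replicate 2 was left out, 0.036 when HET replicate 4 was and 0.018 when WT replicate 4 was.

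Kcnj2, the main Kir2 gene, was at 45.4, 63.3, 79.8 and 50.2 CPM in HET and 49.3, 52.7, 50.9 and 60.3 CPM in WT. HET replicate 3 was the highest of the 8, and that library held the highest value of 10 of the 36 expressed members. The same count over all genes was not made, so it cannot be said whether this is particular to the members. The log2 fold change of Kcnj2 was 0.16 (interval -0.24 to 0.56) and -0.0090 without HET replicate 3. Kcnd2 was at 37.8, 34.6, 38.0 and 35.9 CPM in HET and 24.5, 31.6, 38.4 and 34.5 CPM in WT, where WT replicate 1 was the low library and WT replicate 3 the highest of all (0.18, interval -0.08 to 0.44). Without WT replicate 1 its value was 0.074, without WT replicate 3 it was 0.275, and with the title digits as covariate 0.281. Among libraries that share title digits it was 0.60 (3 HET, 1 WT) and -0.074 (1 HET, 2 WT).

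**Figure D5:**
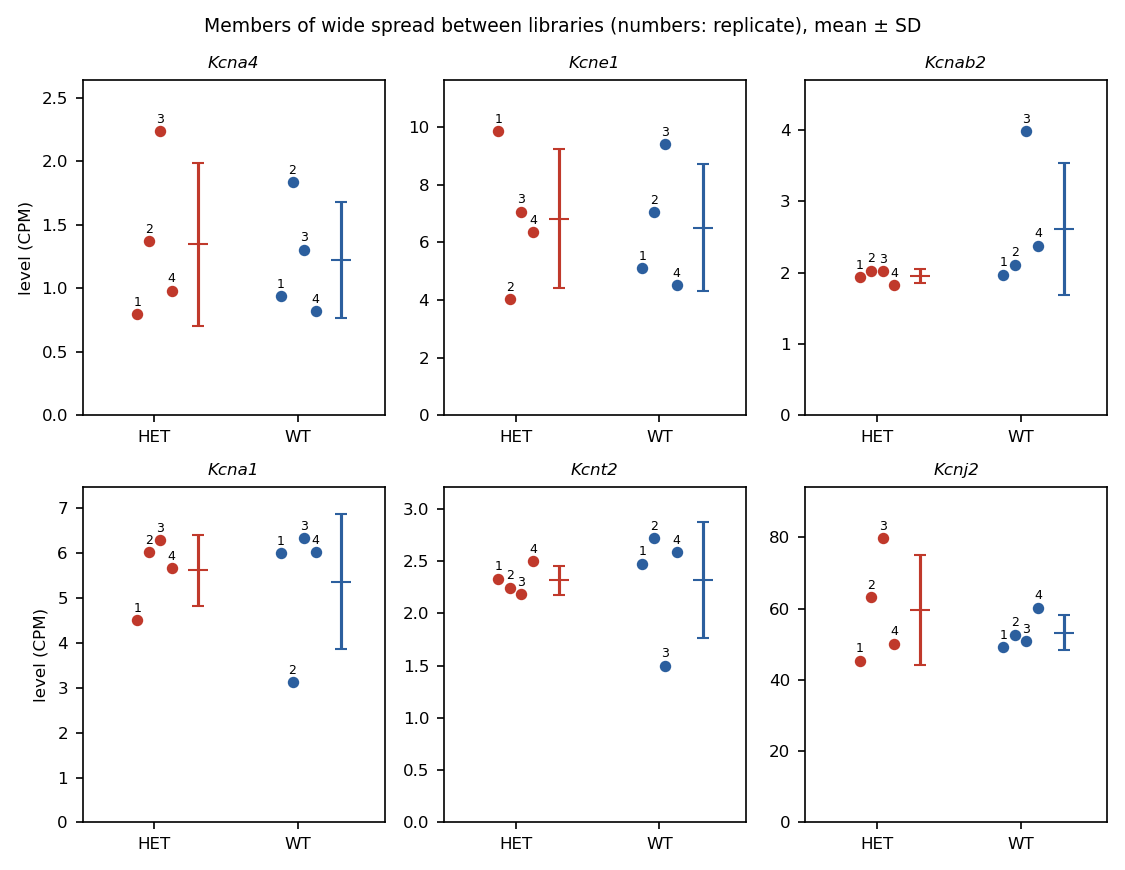
Level (CPM) of 6 members of wide spread in each library, numbered by replicate, with mean ± SD. Kcna4 and Kcne1 spread widely in both groups, while in Kcnab2, Kcna1 and Kcnt2 a single WT library and in Kcnj2 HET replicate 3 lies away from the rest.

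Partners and regulators of potassium channels outside the family were listed as 34 genes, of which 32 were tested. Of these 0 were higher and 0 lower at an adjusted p of 0.05, against 0.00686% of all genes, 3 had an unadjusted p under 0.05 (9.38% against 6.38%), and 20 were positive (median log2 fold change 0.035). The 4 of smallest p were Flna, filamin A, an actin crosslinker (-0.12, SE 0.0499), Amigo1, an accessory protein of voltage-gated channels (0.16, SE 0.0672), Dlg1, the scaffold SAP97 that binds Kir2 and Kv1 channels (0.16, SE 0.0679), and Lrrc10, a heart-enriched leucine-rich repeat protein (0.17, SE 0.0887), all with an adjusted p of 0.770 in edgeR. With the title digits as covariate Dlg1 was 0.055, and Lrrc10 was 0.110 without WT replicate 3.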

How the data were processed

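Per the labels, ventricular RNA was extracted with Trizol and made into stranded poly(A) TruSeq libraries. Values are the deposited counts per Ensembl gene, whole and not normalised, made with STAR 2.4.2a and HTSeq 0.6.1 on GRCm38/mm10 per the submitters' processing notes; annotation release and strand setting are not given in the sources used here. Symbols matched 36345 of 38293 identifiers, and positions, types and exon lengths came from GENCODE M21 (GRCm38).

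Counts were fitted over the whole table with edgeR 4.0.16 in R 4.3.3 (filterByExpr, 14567 genes kept, TMM scaling, robust quasi-likelihood test, Benjamini-Hochberg adjustment over all genes tested, threshold 0.05). The procedure was tested on simulated data in which the changed genes had larger fold changes than any expressed member here. That simulation does not cover smaller differences. CPM, TPM, ratios and intervals (95%) were computed from the counts. Alternatives were RLE scaling, no filter, DESeq2 1.42.0, limma-voom (limma 3.58.1), the digits that sample titles share as covariate and leaving out each library; library-size scaling was added after the data were seen. Replicates are numbered in order of deposition, and the numbers pair nothing.

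A single member is counted but not reported by name here. Members and lists were chosen with earlier results of these data known. Named members are the 12 of highest TPM, the 10 of smallest p, the 5 of greatest spread among those of 1 CPM or more, the 5 marker genes and those of the 6 ratios; of the partners, the 4 of smallest p. Other genes are named as expressed, weak or not detected, as neighbours or partners of these, or where said, after their values were seen.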

Additional observations from a re-analysis of the deposited data

Results flagged for a closer look

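In 4 of 58 groups of 4 libraries checked (named members and ratios), 1 library lay further from the other 3 than a Dixon test at 95% allows; chance flags about 1 in 20 groups. WT replicate 2 was low in Kcna1, at 3.12 CPM against 6.01 to 6.33 in the other WT libraries, and in Kcnq1, at 44.0 CPM against 48.9 to 49.8. HET replicate 2 was low in Kcnn4, at 0.281 CPM (9 counts) against 0.365 to 0.373 in the other HET libraries, and high in the Kcnip2 to Kcnd2 ratio, at 11.8 against 10.1 to 10.4.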

How the results depend on the processing

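Under all 14 alternatives 0 Kcn members and 0 partners were called; the smallest adjusted p of a named member was 0.261 (Kcna5 by DESeq2). Of 322 values of the 23 named members 294 kept their direction and 28 changed it, spread over 9 members, and the other 14 members never changed direction. Members at an unadjusted p under 0.05 were 3 in the main test. They were 3 to 6 when a library was left out, 4 without a filter and 5 with the title digits as covariate. The share of all genes at this threshold was not counted under these settings. It cannot be said whether these counts are particular to the members. Over all genes, DESeq2 called 7 higher and 6 lower, the test without a filter 2 lower, and leaving out a library gave 1 to 3 lower, against 0 and 1. With the title digits as covariate the sign changed for Kcna1 (-0.087), Kcne1 (-0.038), Kcng2 (-0.030), Kcnh2 (0.14), Kcnk3 (-0.012) and Kcnt2 (0.019). Kcnt2 also changed with DESeq2 (0.0020), RLE scaling (0.0016), limma-voom (0.038) and no filter (0.0012).

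When a library was left out, log2 fold changes ran from -0.12 to 0.16 (Kcna1), -0.23 to 0.40 (Kcna4), -0.022 to 0.12 (Kcnd3), -0.16 to 0.30 (Kcne1), -0.096 to 0.078 (Kcnh2), -0.0090 to 0.27 (Kcnj2), -0.0063 to 0.090 (Kcnk3) and -0.16 to 0.084 (Kcnt2). Log2 differences of ratios ran from -0.18 to 0.0075 (Kcnip2 to Kcnd2), -0.20 to 0.041 (Kcnj12 to Kcnj2), -0.24 to 0.18 (Kcne1 to Kcnq1) and -0.44 to -0.31 (Kcnj8 to Kcnj11, adjusted p = 0.171 to 0.343 by exact permutation). The cause of these changes was not tested, beyond the libraries left out. No paired analysis was possible because the labels give no number that pairs HET with WT libraries 1 to 1. The digits that titles share fall unevenly over the groups and were fitted as a covariate instead, with the values given above. WT replicate 2 shares its digits with no other library, so that fit estimates the genotype difference from the other libraries only. Its values are thus not a check separate from those without WT replicate 2. Counts under 100 in a library limit the precision of members of about 1 CPM.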
